A study of Mus musculus with 8 samples.

Results

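The natriuretic peptide system was examined in cultured adult mouse ventricular cardiomyocytes as a set of 8 genes. The set was chosen by name and not by a measured value, but with earlier results of these data known. They are the ligand genes Nppa and Nppb, the receptor genes Npr1, Npr2 and Npr3, and Corin, Furin and Pcsk6, whose proteases take part in processing the peptide precursors. All 8 were among the 11367 protein-coding genes measured, and 13 of 21301 transcripts belonged to them. Of the 8 RNA sequencing libraries, 4 came from cardiomyocytes of C57BL/6 mice kept for 24 hours in M199 medium (control) and 4 from cardiomyocytes kept for 24 hours in M199 medium that CCR2+ cardiac macrophages had conditioned for 24 hours. The macrophages were sorted from hearts of Ccr2gfp/+ mice, which carry a gfp allele at the Ccr2 locus, 4 weeks after transverse aortic constriction (TAC), an operation that overloads the left ventricle. Both media held (–)-Blebbistatin, a myosin inhibitor that stops contraction, with an insulin-transferrin-selenium supplement (ITS) and CD lipid. The study used male mice of about 8 to 12 weeks. The macrophages were sorted into medium with 15% FBS and no serum is named for the control medium, so serum and macrophage products cannot be told apart. The sources do not say whether each library had its own heart as a source, so the p values reflect library-to-library spread that may be technical.

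Natriuretic peptides are cardiac hormones that lower blood pressure and blood volume. Nppa encodes the precursor of atrial natriuretic peptide (ANP) and Nppb that of B-type natriuretic peptide (BNP). ANP is made mainly in the atria of the adult heart, and both genes are widely used as markers of stretched, overloaded or failing ventricular muscle. Corin, a membrane protease of cardiomyocytes, cuts the ANP precursor, furin can cut the BNP precursor, and PCSK6 activates corin. The peptides act through NPR1, a guanylyl cyclase that raises cyclic GMP, whereas NPR2 is the cyclase receptor of C-type natriuretic peptide and NPR3 removes the peptides from the circulation.

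Nppb and Nppa are neighbours on mouse chromosome 4, on the plus strand of GRCm38, with 13516 bases between them. Nppb (ENSMUSG00000029019.8) lies at chr4:147985788-147987205 and Nppa (ENSMUSG00000041616.9) at chr4:148000722-148002079. The other members are Npr1 (chr3:90450591-90465866, minus strand), Npr2 (chr4:43631935-43651244, plus), Npr3 (chr15:11839896-11907287, minus), Corin (chr5:72300025-72504473, minus), Furin (chr7:80388585-80405436, minus) and Pcsk6 (chr7:65861734-66050386, plus). The sequences just upstream of both starts are shown because these neighbouring genes share promoter motifs and were the most abundant members. They are RefSeq promoter sequences (GRCm38.p6), which were found for all 8 members, and the 250 bases before each RefSeq start were searched on both strands. The capitals mark the letters GATAA (or TTATC, the same motif on the other strand), the core bound by GATA factors. They also mark GGAATG, the M-CAT element bound by TEAD factors, and TATAAA, the letters of the TATA box.
Nppb, chr4:147985793-147985822, bases 107 to 78 before the start: caGGAATGcagctGATAAatcagaGATAAc
Nppb, chr4:147985857-147985886, bases 43 to 14 before the start: actcagccccagTATAAAaggcagaggcac
Nppa, chr4:148000588-148000617, bases 134 to 105 before the start: gctttgccgaactGATAActttaaaagggc
Nppa, chr4:148000634-148000663, bases 88 to 59 before the start: tcactccatcgctTTATCgctgcaagtgac
Nppa, chr4:148000692-148000721, bases 30 to 1 before the start: cttctcaaagagctggggggcTATAAAaac
Both windows held 2 copies of GATAA, and 2 or more copies were found in 4.28% of all 32851 RefSeq promoter windows of this length. At least 1 copy was found in 22.6% of these windows. TATAAA was found in 12.4% and GGAATG in 12.6%, the latter in Nppb and not in the Nppa window. The match to TATAAA began 31 bases before the RefSeq start in Nppb but 9 bases before it in Nppa. RefSeq places the start of Nppb at base 147985900, downstream of the start used by the files, so its 2 stretches lie within the gene as the files place it, and a letter match is no evidence of binding.

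Levels are given as FPKM (fragments scaled to transcript length and to the mapped total of the library), which is a per-length scale, and the depth of each library is unknown. Differences were tested with limma on log2(FPKM + 1), and a gene was called at a Benjamini-Hochberg adjusted p under 0.05 over all 11367 genes. The log2 fold change (log2FC) is conditioned minus control on that scale, which compresses differences between low values. Conditioned-medium replicate 4 stood apart from the other libraries. The 13 genes of the mitochondrial genome took 63.0% of its FPKM sum against 30.2% to 40.7% elsewhere, and its mean level of 14 cardiomyocyte markers deviated by -1.23 on the log2 scale from the mean of the 8 libraries, against -0.11 to 0.41 elsewhere. The cardiomyocyte markers were abundant in every library, with Actc1, which encodes cardiac actin, at 1275 to 3138 FPKM in control medium and 688 to 1906 FPKM in conditioned medium. The ventricular markers Myl2 and Myl3 were at 543 to 1404 FPKM and 522 to 1210 FPKM over the 8 libraries. Markers of other heart cells were present as well, with summed levels of 132.6 to 295 FPKM in control and 298.7 to 539 FPKM in conditioned medium for 16 endothelial markers, 71.5 to 129.5 and 114.7 to 149 FPKM for 15 fibroblast markers, 121 to 191 and 87.4 to 155 FPKM for 11 mural markers, and 31.3 to 222 and 214.5 to 222 FPKM for 14 gene entries of 13 macrophage markers. Of 18 listed macrophage markers, Aif1, Ccr2, Cd163, Fcgr1 and Ptprc were not among the measured genes.

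None of the 8 members passed the test, with adjusted p values of 0.245 to 0.958 from limma. Over all genes 0.554% were called higher and 0% lower in conditioned medium. At an unadjusted p under 0.05, Npr1 was higher (1 of 8 members, where 8.78% of all genes were higher) and Nppb was lower (1 of 8 members, where 0.845% of all genes were lower). These were also the members whose groups did not overlap, a separation found upward in 5.08% and downward in 1.46% of all genes. The log2FC was positive for 6 members and negative for Nppb and Corin, with a median of 0.18 over the 8 against 0.02 over all genes. An F test fitted gene by gene, with library size in the model, called none of the 8 (smallest adjusted p = 0.289). None of the 8 had an unadjusted p under 0.05 in that test. The same test called 0 genes higher and 0 lower over all genes, so the absence of calls is not particular to the members. Limma with array weights, which gave conditioned-medium replicate 4 a weight of 0.083 and control replicates 1 and 4 weights of 0.377 and 0.388, called Npr3 and Pcsk6 higher (2 of 8 members, where 7.76% of all genes were higher) and Nppb lower (1 of 8, where 0.449% were lower).

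**Figure D1:**
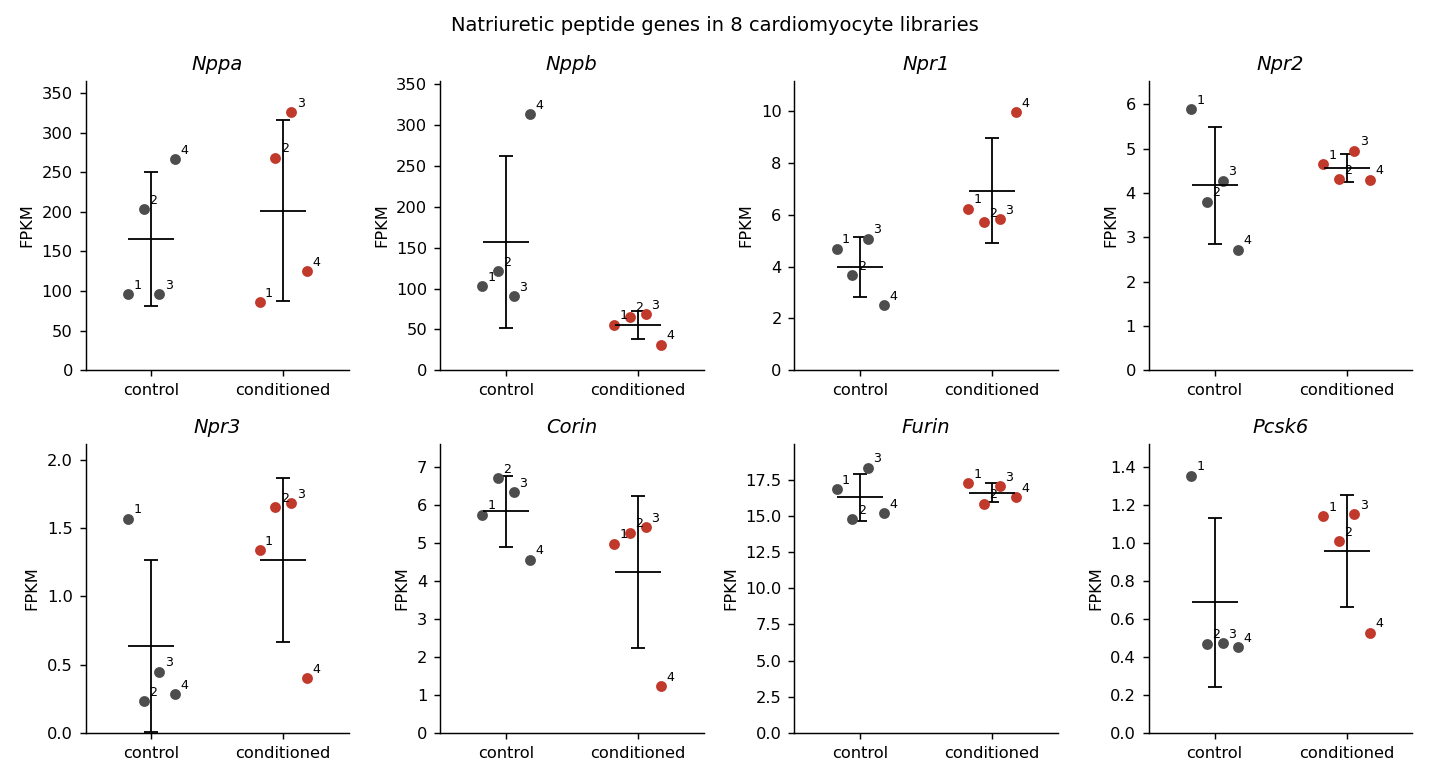
FPKM of each member in the 8 libraries, with control medium in grey and conditioned medium in red. The numbers are replicates, the horizontal lines are means and the bars are SD (n = 4 per group); all axes start at 0. Nppb was lower in all 4 conditioned-medium libraries than in any control library, Npr1 was higher, and the other members overlapped.

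Nppb was lower in conditioned medium than in control medium in every library, but the size of the difference rested in part on 1 control library. Its level was 102 FPKM in control replicate 1, 121 FPKM in replicate 2, 90.5 FPKM in replicate 3 and 314 FPKM in replicate 4. In conditioned medium it was at 55.8, 65.6, 68.7 and 31.1 FPKM in replicates 1 to 4. The groups did not overlap, and control replicate 4 was far above and conditioned-medium replicate 4 below the other 3 libraries of their groups. The means were 157 ± 105 FPKM (SD, n = 4) in control and 55.3 ± 17.1 FPKM (SD, n = 4) in conditioned medium, so that Nppb ranked 239th of the 11367 genes by mean level in control medium and 644th in conditioned medium. The log2FC was -1.36 (standard error 0.38, 95% interval -2.18 to -0.54, limma adjusted p = 0.245). It was -0.96 without control replicate 4 and -0.71 without replicate 4 of both groups (limma adjusted p = 0.531 and 0.0721), the latter chosen after seeing the data, and -0.82 with array weights (limma adjusted p = 0.0323), with adjusted p values of 0.0323 to 1 over all alternatives. In these bulk libraries, fewer cells of a type and less RNA per cell cannot be told apart.

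Cell type markers were compared with Nppb across the libraries. The library with the lowest Nppb, conditioned-medium replicate 4, also had the lowest cardiomyocyte markers and the highest endothelial markers. The highest, control replicate 4, had the lowest endothelial markers, at a mean deviation of -0.98 on the log2 scale. Outside conditioned-medium replicate 4 the cardiomyocyte markers followed Nppb in part. Their mean was higher in control replicates 2 to 4 (0.28 to 0.41) than in conditioned-medium replicates 1 to 3 (-0.05 to 0.20), where Nppb was lower. Control replicate 1 went the other way, with a lower marker mean (-0.11) than conditioned-medium replicates 1 to 3 but a higher Nppb. All 14 cardiomyocyte markers had a negative log2FC, with a median of -0.43 (-0.12 without conditioned-medium replicate 4). None was called, and Ldb3 and Mybpc3, genes of the Z-disc and the thick filament, did not overlap between the groups. With the mean of the cardiomyocyte markers as a covariate, chosen after seeing the data, the log2FC of Nppb was -0.95, and with endothelial markers instead it was -0.28. The endothelial marker mean did not itself overlap between the media (at most 0.1208 in control and at least 0.1243 in conditioned medium), and with it in the model 1 gene was called higher in place of 63, so medium and endothelial markers cannot be told apart there. The part of cell composition in the difference was not tested beyond these values.

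Nppa did not separate by medium. It was at 95.7, 204, 96.2 and 266 FPKM in control replicates 1 to 4 and at 85.9, 268, 326 and 125 FPKM in conditioned-medium replicates 1 to 4. Low and high libraries occurred in both groups, and the control values lay inside the wider range of the conditioned-medium values. In conditioned medium 2 libraries lay above every control library and 1 lay below. Means were 166 ± 84.2 FPKM (SD, n = 4) and 201 ± 114 FPKM (SD, n = 4), and the log2FC was 0.23 (standard error 0.45, 95% interval -0.75 to 1.20, limma adjusted p = 0.888). That interval covers changes of either sign, and the value ran from -0.51 to 1.29 over all alternatives, with -0.07 without conditioned-medium replicate 3.

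The libraries lowest in Nppa were also lowest in 4 of 8 markers of atrial muscle, which was not so for Nppb. Myl7, which encodes the atrial myosin regulatory light chain, was at 4.88, 40.6, 1.02 and 13.2 FPKM in control replicates 1 to 4 and at 4.18, 39.7, 39.3 and 38.9 FPKM in conditioned-medium replicates 1 to 4. Control replicates 1 and 3 and conditioned-medium replicate 1, the 3 libraries with the lowest Nppa, were also the 3 lowest in Myl7. The same 3 libraries were lowest in Sln, which encodes the atrial calcium pump inhibitor sarcolipin (0.118 to 0.446 FPKM, against 1.45 to 5.32 FPKM in the other 5), in Myl4, the atrial essential light chain gene (1.47 to 1.81 against 3.13 to 8.42 FPKM), and in Mybphl (0.116 to 0.239 against 0.488 to 3.44 FPKM). Conditioned-medium replicate 4 was an exception at the high end, with Myl7 as high as in replicates 2 and 3 but Nppa at 125 FPKM. The other 4 atrial markers measured, Dkk3, Kcnj3, Gja5 and Nr2f2, did not share this pattern. Dkk3 came nearest, at 0.091 to 0.286 FPKM in the same 3 libraries, but control replicate 4 was as low (0.233 FPKM). Kcnj3, Gja5 and Nr2f2 went against it. Kcnj3 and Gja5 were highest in conditioned-medium replicate 1 (1.25 and 1.64 FPKM), a library low in Nppa. Nr2f2 was lowest in control replicates 2 and 4 (1.26 and 1.785 FPKM), which were not among the 3 libraries lowest in Nppa. The labels give the cells as ventricular, and Myl7 was far below the ventricular light chain gene Myl2 in every library. Of 8 measured atrial markers, 7 had a positive log2FC with a median of 0.49, and none was called with limma (1 higher unadjusted, Mybphl). With the mean of the atrial markers as a covariate, chosen after seeing the data, the log2FC was -0.51 for Nppa (limma adjusted p = 0.777) and -1.49 for Nppb. Whether atrial cells in the preparations contributed to the level of Nppa was not tested beyond these values.

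**Figure D2:**
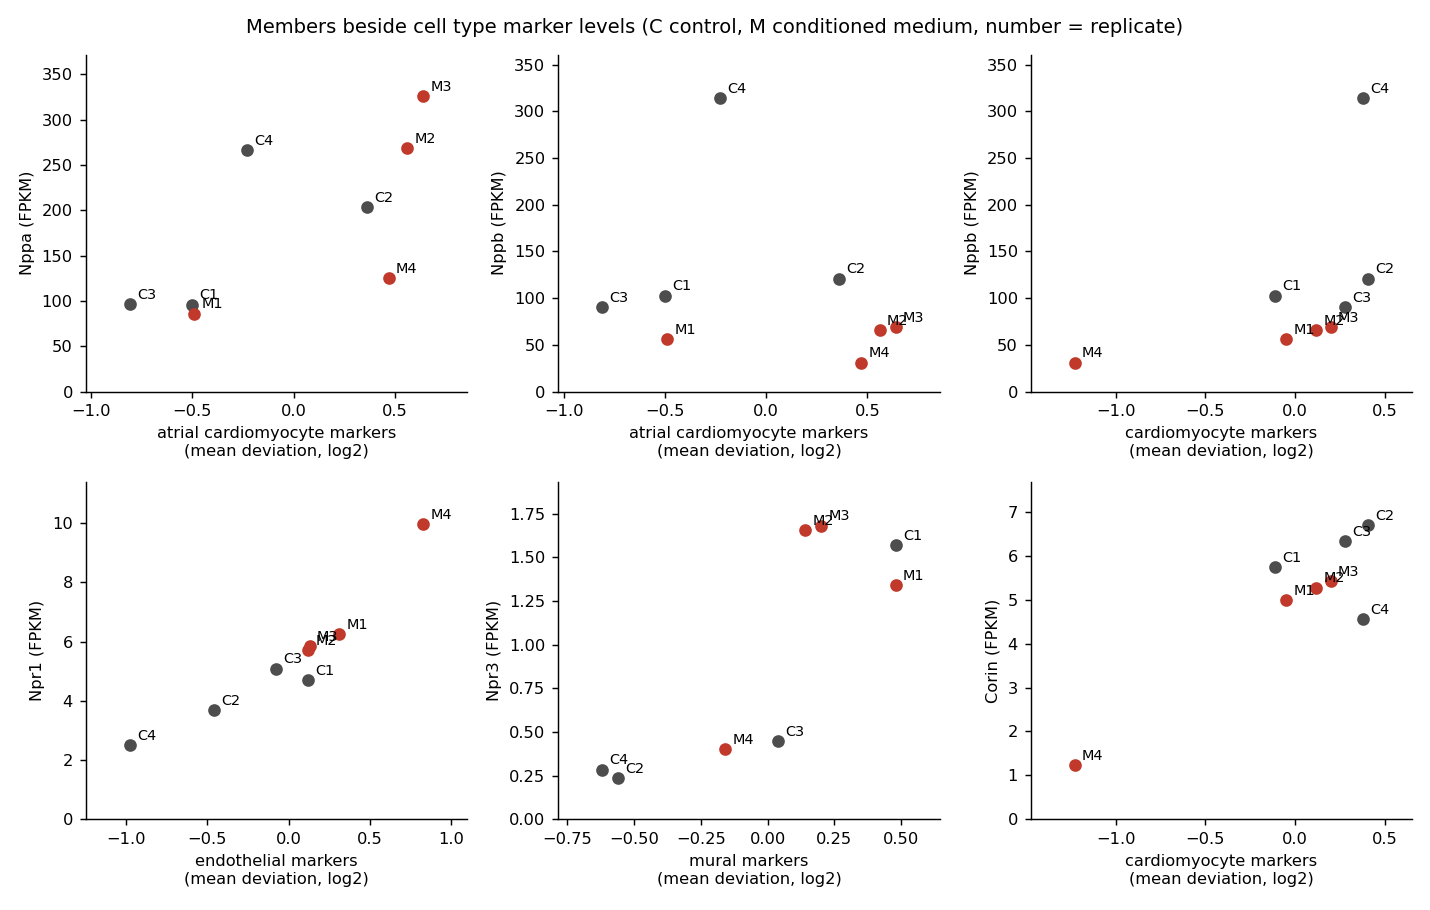
FPKM of 5 members against the mean level of cell type markers in the same library, given as the mean deviation of the markers' log2(FPKM + 1) from their mean over the 8 libraries. C is control (grey), M is conditioned medium (red) and the number is the replicate. The 3 libraries with the lowest atrial markers had the lowest Nppa, Npr1 was highest in the library with the highest endothelial markers (0.83) and lowest in that with the lowest (-0.98), and Corin was lowest in the library with the lowest cardiomyocyte markers (-1.23).

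The balance between the ligand transcripts was compared within each library, where scaling between libraries has no part. The ratio of Nppb to Nppa FPKM was 1.07, 0.594, 0.941 and 1.18 in control replicates 1 to 4. It was 0.650, 0.245, 0.211 and 0.249 in conditioned-medium replicates 1 to 4. Conditioned-medium replicate 1, one of the libraries with low atrial markers, overlapped with control replicate 2, and the other 3 lay below every control library. The mean log2 ratio was -0.13 ± 0.44 (SD, n = 4) in control and -1.73 ± 0.74 (SD, n = 4) in conditioned medium, a difference of -1.60 (p = 0.0571 by a two-sided exact permutation test over 70 arrangements, where 0.0286 is the smallest p possible, and 0.114 adjusted over the 2 ratios tested).

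Npr1, the gene of the ANP and BNP receptor, was higher in every conditioned-medium library than in any control library. It was at 4.70, 3.68, 5.09 and 2.51 FPKM in control replicates 1 to 4 and at 6.24, 5.71, 5.84 and 9.98 FPKM in conditioned-medium replicates 1 to 4. The gap between the groups was narrow, from 5.09 to 5.71 FPKM, and conditioned-medium replicate 4 was far above the other 3. The means were 3.995 ± 1.16 FPKM (SD, n = 4) and 6.94 ± 2.04 FPKM (SD, n = 4), which gave a log2FC of 0.67 (standard error 0.22, 95% interval 0.18 to 1.16, unadjusted p = 0.0118 and limma adjusted p = 0.372).
Endothelial cells express Npr1. Each of the 16 endothelial markers had a log2FC above 0, and their median was 0.71 (0.58 without conditioned-medium replicate 4), none was called with limma (12 higher unadjusted), and the groups did not overlap for 7. Tek and Cldn5, the endothelial receptor and tight junction genes with the smallest p, had log2FC values of 0.75 and 0.66. Control replicates 4 and 2 were lowest in both Npr1 and the mean of the markers (-0.98 and -0.46 on the log2 scale), and conditioned-medium replicates 4 and 1 were highest in both (0.83 and 0.31). A positive median log2FC was not particular to endothelial markers. It was 0.71 for macrophage, 0.48 for endocardial, 0.47 for mural and 0.35 for fibroblast markers. Of the 15 fibroblast markers, Dcn was called higher (log2FC 1.22, limma adjusted p = 0.0336). When the endothelial marker mean was added to the model, the log2FC of Npr1 was 0.11, but as that mean separates the media completely, the value does not tell them apart. The part of endothelial cells in the level of Npr1 was not tested.

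Npr2 and Npr3 overlapped between the media. Npr2, the gene of the receptor for C-type natriuretic peptide, was at 5.89, 3.80, 4.28 and 2.72 FPKM in control replicates 1 to 4 and between 4.30 and 4.96 FPKM in the 4 conditioned-medium libraries. The conditioned-medium values lay inside the range of the control values. Its log2FC was 0.14 (95% interval -0.28 to 0.56, limma adjusted p = 0.843), and -0.01 without control replicate 4.
Npr3, the gene of the clearance receptor, was at 1.57, 0.234, 0.449 and 0.283 FPKM in control replicates 1 to 4 and at 1.34, 1.66, 1.68 and 0.401 FPKM in conditioned-medium replicates 1 to 4. Control replicate 1 was as high as conditioned-medium replicates 1 to 3, and conditioned-medium replicate 4 was as low as the other control libraries. The means were 0.634 ± 0.630 FPKM (SD, n = 4) and 1.27 ± 0.600 FPKM (SD, n = 4), which gave a log2FC of 0.50 (standard error 0.26, 95% interval -0.07 to 1.06, limma adjusted p = 0.581), and 0.86 with array weights (limma adjusted p = 0.00456, and 0.00456 to 1 over all alternatives).
The 4 libraries with high Npr3 were also the 4 with the highest mean of the mural markers (0.14 to 0.48, against -0.62 to 0.04 in the other 4, as mean deviations on the log2 scale). They were also the 4 with the highest mean of the macrophage markers (0.29 to 0.43, against -1.27 to 0.24). The mean of 3 endocardial markers was 0.13 to 0.37 in these 4 libraries and -0.62 to -0.13 in control replicates 2 to 4. That mean was highest (0.44) in conditioned-medium replicate 4, where Npr3 was low. Single mural markers differed. Tagln, a smooth muscle gene, was highest in these 4 libraries, whereas Acta2, the smooth muscle actin gene, and Abcc9, a potassium channel subunit gene, were highest in control replicate 3 (these 3 were chosen after their values were seen). Of 11 mural markers 9 had a positive log2FC, with a median of 0.47 and none called with limma (3 higher and 1 lower unadjusted). The part of mural cells, macrophages or endocardial cells in the level of Npr3 was not tested.
By mean FPKM in control medium the receptors were ordered Npr2 (4.17), Npr1 (3.995) and Npr3 (0.634). Npr2 and Npr1 overlapped, and Npr3 was below both in every library. In conditioned medium the order was Npr1, Npr2 and Npr3, and Npr1 was above Npr2 in all 4 libraries. The log2 ratio of Npr3 to Npr1 was -3.05 ± 1.04 (SD, n = 4) in control and -2.61 ± 1.37 (SD, n = 4) in conditioned medium, a difference of 0.44 (p = 0.571 by the same exact permutation test, and 0.571 adjusted over the 2 ratios).

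Among the processing proteases, Corin had a negative log2FC that came mostly from 1 library. It was at 5.75, 6.71, 6.33 and 4.56 FPKM in control replicates 1 to 4 and at 4.98, 5.27, 5.42 and 1.24 FPKM in conditioned-medium replicates 1 to 4. Conditioned-medium replicates 1 to 3 lay inside the control range, and replicate 4, the library with the low cardiomyocyte markers, lay far below it. The means were 5.84 ± 0.936 FPKM (SD, n = 4) and 4.23 ± 2.003 FPKM (SD, n = 4), which gave a log2FC of -0.49 (standard error 0.31, 95% interval -1.17 to 0.18, limma adjusted p = 0.662). It was -0.12 without conditioned-medium replicate 4, and -0.02 once the cardiomyocyte marker mean was in the model.
Furin, the gene of a convertase made in nearly all cells, was the steadiest of the 8 members. It was at 14.8 to 18.3 FPKM in control medium (median 16.0) and at 15.8 to 17.2 FPKM in conditioned medium (median 16.7). Its groups overlapped, and conditioned-medium replicate 4 lay within both. The log2FC was 0.03 (standard error 0.15, 95% interval -0.30 to 0.36, limma adjusted p = 0.958), with the narrowest interval among the members.
Pcsk6 was at 1.35, 0.468, 0.471 and 0.452 FPKM in control replicates 1 to 4 and at 1.14, 1.01, 1.15 and 0.527 FPKM in conditioned-medium replicates 1 to 4. Its high libraries, control replicate 1 and conditioned-medium replicates 1 to 3, were those of Npr3. The log2FC was 0.23 (standard error 0.18, 95% interval -0.16 to 0.63, limma adjusted p = 0.723), 0.41 without control replicate 1 and 0.43 with array weights (limma adjusted p = 0.0328, and 0.0328 to 1 over all alternatives).
The order Furin, Corin and Pcsk6 by FPKM held in each of the 8 libraries.

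**Figure D3:**
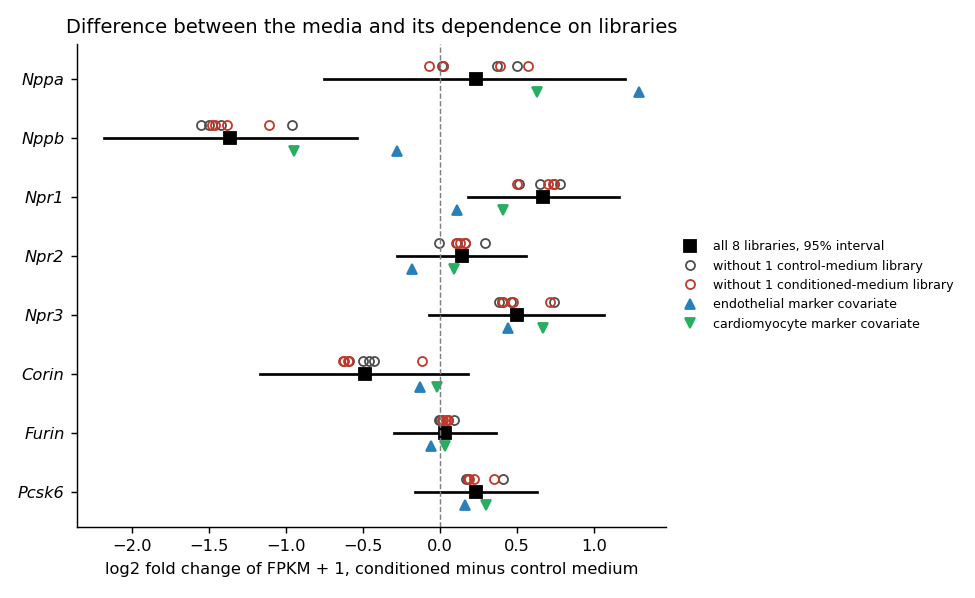
Log2FC, conditioned minus control medium, for the 8 members. Squares are the values from all 8 libraries with 95% intervals from limma, open circles leave out 1 library each, and triangles use the mean of endothelial (blue) or cardiomyocyte (green) markers as a covariate. The interval left out 0 for Nppb and Npr1 alone.

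At the transcript level none of the 13 transcripts passed the test with limma (smallest adjusted p = 0.672, for Nppb-201). Over all transcripts 0.061% were called higher and 0.00469% lower. Nppa, Nppb, Npr1, Npr3 and Corin had 1 transcript each, and Corin-201 was between 5.05 and 7.36 FPKM in every control library but listed at 0 in replicate 4 of conditioned medium.
Furin had 3 transcripts, and its libraries differed in which of them carried most of the FPKM. Furin-203, with its start at chr7:80402762 on the minus strand, was at 31.0 to 38.3 FPKM in the 4 control libraries and at 33.3 and 34.1 FPKM in replicates 2 and 4 of the conditioned group. In conditioned-medium replicates 1 and 3 it was at 6.33 and 7.45 FPKM. Furin-201, which starts further upstream at chr7:80405431, was listed at 0 in all 4 control libraries and in conditioned-medium replicates 2 and 4, and was at 30.7 and 29.2 FPKM in conditioned-medium replicates 1 and 3. The sum of Furin-201 and Furin-203 was 31.0 to 38.3 FPKM in control and 33.3 to 37.1 FPKM in conditioned medium. The gene-level values of Furin were smaller than this sum, at 14.8 to 18.3 FPKM over the 8 libraries, and the reason was not tested. Furin-206 was at 0.268 to 1.22 FPKM in control and 1.03 to 2.01 FPKM in conditioned medium. None of the 3 was called (limma adjusted p = 0.778 for each).
Npr2 libraries differed in the same way, and Npr2-201 made up 100% of the sum of Npr2-201 and Npr2-202 in control replicates 2 and 4 and in conditioned-medium replicate 1, and 6.97% to 63.9% in the other 5 libraries. In Pcsk6, Pcsk6-202 was listed at 0 in 5 libraries and Pcsk6-201 in conditioned-medium replicate 3. The transcripts of each pair span nearly the same region, and how shared fragments were divided between them cannot be seen from FPKM.

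**Figure D4:**
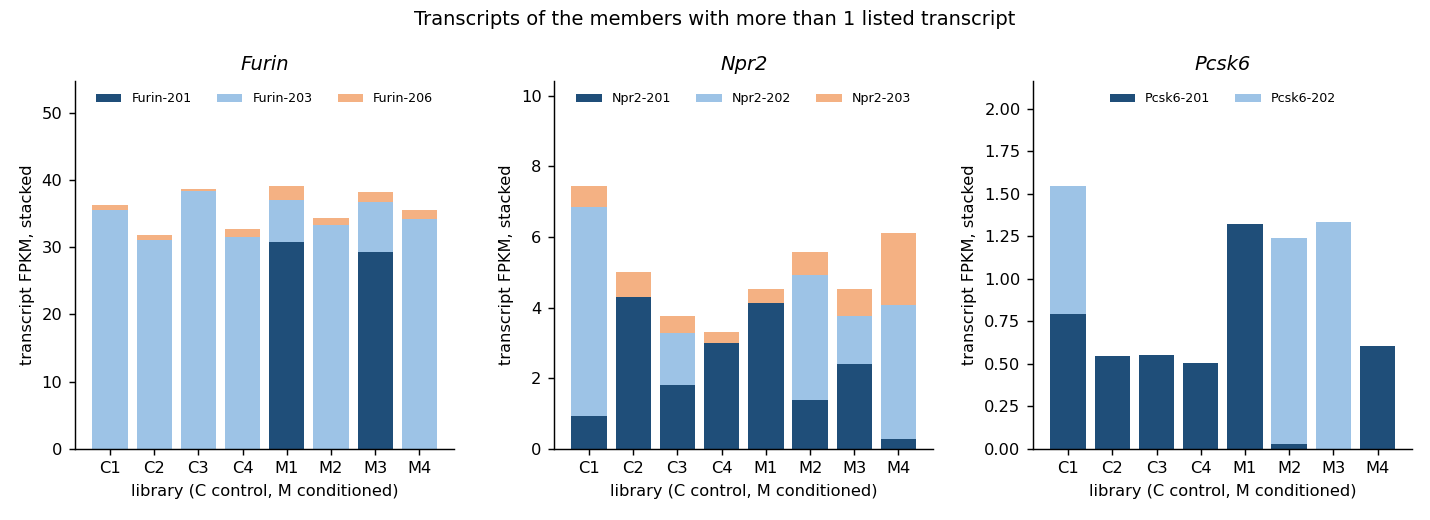
FPKM of the listed transcripts of Furin, Npr2 and Pcsk6 in each library, stacked, with C for control and M for conditioned medium and the replicate number. The stacks of Furin differ little in height while Furin-201 appears in 2 conditioned-medium libraries alone.

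Of 37 listed symbols of the wider pathway (other ligands, peptide-degrading enzymes, cyclic GMP enzymes and targets, and other convertases, with older and current names of 3 genes), 17 were measured. None was called (3 higher and 0 lower unadjusted with limma), 10 had a positive and 7 a negative log2FC, and the median was 0.18 (0.32 without conditioned-medium replicate 4) against 0.02 over all genes. Ece1, which encodes a peptidase that activates endothelin, was at 5.25 to 17.9 FPKM in control and 13.6 to 21.5 FPKM in conditioned medium, which gave a log2FC of 0.96 (limma adjusted p = 0.349). Gucy1b3, a subunit gene of the nitric oxide-sensitive guanylyl cyclase, and Pde1a, a phosphodiesterase gene, had a log2FC of 0.70 and 0.43, respectively (limma adjusted p = 0.499 and 0.516). Pln, which encodes the calcium pump regulator phospholamban and was the most abundant, was at 81.5 to 121.5 FPKM in control and 35.9 to 95.8 FPKM in conditioned medium, with its lowest value in conditioned-medium replicate 4. The control libraries lowest in Ece1 and Gucy1b3 were replicates 2 and 4, those with the lowest endothelial markers.

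Of 19 measured genes of transcription factors known to act on the Nppa and Nppb promoters, none was called (0 higher and 1 lower unadjusted with limma), and 15 had a negative log2FC with a median of -0.15 (-0.03 without conditioned-medium replicate 4). The 1 was Srf, the gene of serum response factor, at 17.3 to 21.7 FPKM in control and 9.18 to 16.7 FPKM in conditioned medium. Its groups did not overlap, and its log2FC was -0.53 (standard error 0.20, limma adjusted p = 0.445). Gata4, whose protein binds GATA motifs such as those shown above, was at 29.0, 7.67, 16.6 and 12.7 FPKM in control and 8.69, 17.2, 8.15 and 4.06 FPKM in conditioned medium, with overlapping groups. Its log2FC was -0.73 (limma adjusted p = 0.607), and its level was not in the order of Nppb. Nkx2-5, the cardiac homeobox gene and most abundant here, was at 57.6 to 78.3 FPKM in control and 56.4 to 69.96 FPKM in conditioned-medium replicates 1 to 3, against 22.1 FPKM in replicate 4.

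Of 11 measured hypertrophy and stretch genes, which often move with the natriuretic peptides in overloaded hearts, none was called (0 higher and 1 lower unadjusted with limma). In 10 the log2FC was negative, with a median of -0.54 over the 11 (-0.15 without conditioned-medium replicate 4). The 1 was Nmrk2, a kinase gene of the NAD pathway in muscle, at 18.9, 54.2, 46.1 and 74.7 FPKM in control and 17.2, 28.7 and 29.1 FPKM in conditioned-medium replicates 1 to 3, with its lowest value in replicate 4 (log2FC -1.33, limma adjusted p = 0.448). Csrp3, a Z-disc gene, was at 100.4 to 163 FPKM in control and 54.9 to 118 FPKM in conditioned medium, which gave a log2FC of -0.58 (limma adjusted p = 0.518). Ankrd1, which encodes a stretch-induced ankyrin repeat protein and was the most abundant, was at 1319 to 2053 FPKM in control and 1610 to 1665 FPKM in conditioned-medium replicates 1 to 3, inside the control range, but at 262 FPKM in replicate 4. In the same 3 libraries Nppb lay below every control library. Whether the changes of the 2 genes differ was not tested.

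Likeness of pattern was measured as Pearson's r of log2(FPKM + 1) over the 8 libraries, among 5536 genes with a mean of at least 5 FPKM. The 5 genes most like Nppb were Jmjd6 (r = 0.964), Ddt (r = 0.950), Timm9, Atf4 and Vapa (r = 0.944 each). Atf4, a transcription factor gene of the integrated stress response, was highest in control replicate 4, at 509 FPKM, and lowest in conditioned-medium replicate 4, at 274 FPKM, as was Nppb. The 5 most like Nppa were Hspa5 (r = 0.931), Hbegf (r = 0.883), Sertad1 (r = 0.868), Gadd45g (r = 0.836) and Tor1aip1 (r = 0.820). Hspa5, the gene of an endoplasmic reticulum chaperone, was at 80.6 to 134 FPKM in the 3 libraries lowest in Nppa and in control replicate 2 and conditioned-medium replicate 4. The 3 libraries with the highest Nppa had 208.5 to 259 FPKM of Hspa5. Nppa and Nppb themselves had an r of 0.332. These values are descriptions over 8 libraries that share their scaling and the libraries that stand apart, and with so many genes compared high values occur readily.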

How the data were processed

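Adaptors were trimmed with cutadapt, reads were aligned to GRCm38 with HISAT2, abundances were estimated with StringTie and FPKM per gene and per transcript were derived with Ballgown by the authors. For these tools and the annotation, versions are not given in sources used here. The deposited FPKM were used unchanged. Entries are protein-coding, and the larger group mean of each is at least 0.5 FPKM. No further scaling between libraries is described. FPKM carry no read totals, so depth is unknown and the spread between libraries sets the precision. In each table a single blank line was left out.

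Groups followed the sample titles. Values of log2(FPKM + 1) were modelled by medium with limma 3.58.1 (R 4.3.3, trend, two-sided), and p values were adjusted over all genes, or all transcripts, after Benjamini and Hochberg. Ratios were compared by exact permutation. The fit was first tested on simulated data. Alternatives were another pseudocount, a stricter filter, 3 scalings, an F test, array weights, a replicate block, summed transcripts, libraries left out and marker covariates, 3 of them chosen after seeing the data. The named genes were the members, their transcripts, up to 4 genes per list by smallest p and abundance, and the 5 genes most like each ligand gene. The members and the lists were chosen with earlier results of these data known.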

Additional observations from a re-analysis of the deposited data

Results flagged for a closer look

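Dixon's criterion at 95% was applied to 20 groups of 4 values (8 members and 2 ratios in each medium). In 7 of the 20 groups, 1 library lay farther from the others than it allows. The chance rate of about 1 in 20 is for independent, normally distributed values. These groups share libraries, and the ratios are built from the members, so the count cannot be set against that rate. Control replicate 4 stood out for Nppb (314 FPKM). Control replicate 1 stood out for Npr3 (1.57 FPKM) and Pcsk6 (1.35 FPKM). Conditioned-medium replicate 4 stood out for Npr1 (9.98 FPKM), Corin (1.24 FPKM) and the log2 ratio of Npr3 to Npr1 (-4.64). Conditioned-medium replicate 1 stood out for the log2 ratio of Nppb to Nppa (-0.62).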

How the results depend on the processing

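Of 22 alternatives (21 for Pcsk6, which the stricter filter removed), array weights alone moved members past the threshold: Nppb (-0.82), Npr3 (0.86) and Pcsk6 (0.43); the cause was not tested. The sign of Nppb, Npr1, Npr3, Corin and Pcsk6 held under every alternative, with ranges of -1.55 to -0.28, 0.11 to 0.79, 0.19 to 1.07, -0.83 to -0.02 and 0.06 to 0.51. With 1 library left out they ranged from -1.55 to -0.96, 0.50 to 0.78, 0.38 to 0.74, -0.63 to -0.12 and 0.17 to 0.41. In the same way Nppa ranged from -0.07 to 0.57, Npr2 from -0.01 to 0.29 and Furin from -0.01 to 0.09, so their signs turned. Nppa was also at -0.51 with the atrial covariate, 1.29 with the endothelial covariate, 0.86 without control replicates 2 and 4 and 0.73 with array weights. Without control replicates 2 and 4 together Npr2 was at -0.12 and Furin at -0.08, and with the endothelial covariate at -0.18 and -0.06. Furin was at -0.00041 with size factors and -0.01 with array weights. The Nppb to Nppa log2 ratio ranged, with 1 library left out, from -1.97 to -1.43 and passed the threshold without conditioned-medium replicate 1 (-1.97, p = 0.0286 by exact permutation). The Npr3 to Npr1 ratio ranged from 0.14 to 1.12, and was -0.17 with 1 FPKM added. Nppa-201 ranged from -0.07 to 0.57 and Npr2-201 from -0.58 to 0.08.

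Over all genes 63 were called higher and 0 lower. The counts were 882 and 51 with array weights, 0 and 0 with the F test, 2 and 1 without control replicates 2 and 4, 1 and 0 with the endothelial covariate, 31 to 110 and 0 to 2 with 1 library left out, and up to 3 lower under the others. The median log2 fold change of all genes was 0.02, and ran from -0.09 (without control replicates 2 and 4) to 0.12 (array weights, the cardiomyocyte covariate or without conditioned-medium replicate 4), so changes under these settings are to be read relative to it. Same-numbered libraries deviated together in 1 of 4 pairs (r = 0.259, the others -0.176 to 0.056), so the numbers are not taken as pairing. With the replicate block 69 genes were higher and 0 lower, no member was called, and Nppb was at -1.36 (limma adjusted p = 0.342).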

Other observations

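Other genes of peptide processing were counted above among the measured genes of the wider pathway but not named. They were chosen here after their values were seen. Pam, which encodes the enzyme that amidates peptides and is abundant in atrial secretory granules, was at 28.0 to 37.0 FPKM in control medium, at 31.7 to 36.2 FPKM in conditioned-medium replicates 1 to 3 and at 12.5 FPKM in replicate 4 (log2 fold change -0.32, limma adjusted p = 0.76). It did not follow Myl7 across the libraries. Ide, the gene of an insulin-degrading enzyme that also cuts natriuretic peptides, was at 13.2 to 18.0 FPKM in control and 8.55 to 15.1 FPKM in conditioned medium (log2 fold change -0.25, limma adjusted p = 0.742). Of the convertase genes outside the members, Pcsk7 was at 1.81 to 3.59 and 1.69 to 4.20 FPKM, and Mbtps1 at 3.10 to 5.87 and 3.65 to 6.06 FPKM, in control and conditioned medium. Both overlapped between the groups.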
